A study of Homo sapiens with 9 samples.

Results

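This section describes 9 noncoding RNA genes of the human cell that work as RNA rather than as templates for protein: RMRP, RPPH1, RN7SK, RN7SL1, RN7SL2, TERC, MALAT1, NEAT1 and NORAD. They were chosen by name, as the RNA parts of RNase P and RNase MRP, of the 7SK particle, of the signal recognition particle and of telomerase, together with the long RNAs of nuclear speckles and paraspeckles and a long RNA that binds the protein PUM2. By the table of gene names used, the 9 symbols matched 1 Ensembl ID each among the 60683 gene IDs of the count files (GENCODE 29 gives the name RMRP to a second of these IDs, described below), 5 of the 9 had a count in some library, and 4 (RN7SL1, MALAT1, NEAT1 and NORAD) passed the filter on low counts and were tested. The other 5 are accounted for by their counts.

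RNA came from HEK293T, a widely used line grown from embryonic kidney and expressing SV40 large T antigen, in 3 groups of 3 libraries. Parental cells had no integrated reporter. Clone 37 and clone 15 each grew from 1 sorted cell after the piggyBac transposon had placed a pair of reporters in the genome, ATG-(CAG)60-Myc-NLuc, with 60 CAG units, and ATG-(CAG)0-Myc-FLuc, with 0 CAG units; per the labels both are expressed strongly in clone 37 and weakly in clone 15. With 1 clone for each level, reporter level and other differences between clones cannot be told apart. Clone 15 was read at 100 bp and the other groups at 75 bp, which means that effects of this clone and of longer reads cannot be told apart either. The labels do not say that replicates were separate cultures, so p-values measure the spread between these libraries, which may be technical.

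Most of the short RNAs in this set are made by RNA polymerase III and act inside a protein particle. RNase P, built on RPPH1, trims the leader from transfer RNA precursors, and RNase MRP, built on RMRP, cuts ribosomal RNA precursors; the pair of enzymes share most of their proteins. The 7SK RNA holds the kinase P-TEFb in an inactive store, and 7SL RNA is the scaffold on which the signal recognition particle brings ribosomes that are making secreted proteins to the endoplasmic reticulum. TERC carries the template that telomerase copies onto chromosome ends. MALAT1 gathers in nuclear speckles, NEAT1 is the scaffold of paraspeckles, and NORAD is a mostly cytoplasmic RNA with many PUM2 binding sites.

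Strand-specific gene counts summed to between 10334090 and 38093340 per library, with every clone 15 library deeper than every other library. At these depths a count of 3 corresponded to 0.0788 to 0.290 CPM, where CPM is the count of a gene after the library's gene counts are scaled to a total of 1000000. Pairs that mapped to several places made up 11.9% to 14% of read pairs in parental cells, 10.4% to 11.7% in clone 37 and 4.59% to 5.98% in clone 15. One library stood apart: in parental replicate 2, 19.2% of read pairs fell outside annotated exons of their own strand, against 25.7% to 34.6% in the other 8 libraries. Of 12152 genes with a mean of at least 5 CPM, 2205 (18.1%) had their lowest level of all 9 libraries there, and 1814 (14.9%) their highest. Comparisons with parental were therefore recomputed without that library. The values without it are given for the tested members and for the counts it changed. Among the calls of other named genes that were checked, none lost significance or changed direction. KHDRBS1 in clone 15 was not among those checked. All 9 HEK293T marker genes reached 1 CPM in every group. The 7 markers of blood, endothelial and liver cells summed to 1.07 to 2.28 CPM per library, and 2 of them were at 0 in each group. NEFL and NEFM, the neurofilament genes among the HEK293T markers, differed between the groups, and the summed markers ranged from 1459 to 1773 CPM in parental, 899 to 963 in clone 37 and 4209 to 4373 in clone 15.

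What the counts can show about each RNA depends on how many gene entries cover it. Files of this layout count a read pair only when it maps to 1 place and overlaps the exons of 1 gene. In the GENCODE 29 annotation of GRCh38, every exon base of RMRP (ENSG00000277027, chr9:35657754-35658017, 264 bases), of RPPH1 (ENSG00000277209, chr14:20343075-20343407, 333 bases) and of RN7SK (ENSG00000283293, chr6:52995621-52995948, 328 bases) also lies in the exon of another gene entry on the same strand, and that entry's ID is in the count files too. These 3 genes were listed at 0 in all 9 libraries. The partner entries of RMRP and RN7SK were listed at 0 as well, and the longer noncoding gene that covers RPPH1 (ENSG00000259001) had 0 counts on its own strand. With such overlaps a 0 is no measure of abundance, and no level is given for these 3 RNAs. Pairs that overlapped more than 1 gene, which such files leave out, made up 3.76% to 4.4% of all pairs and are not split by gene. The annotation release behind the files was not given in the sources used here, and it is not GENCODE 29. In GENCODE 29 another same-strand entry (ENSG00000283029) also covers 100% of RN7SL1, but its ID is not in the files, and RN7SL1 had 1610015 counts. The overlaps are therefore those of GENCODE 29 entries whose IDs are in the files, and whether they have the same extent in the files' own release was not tested.

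**Figure D1:**
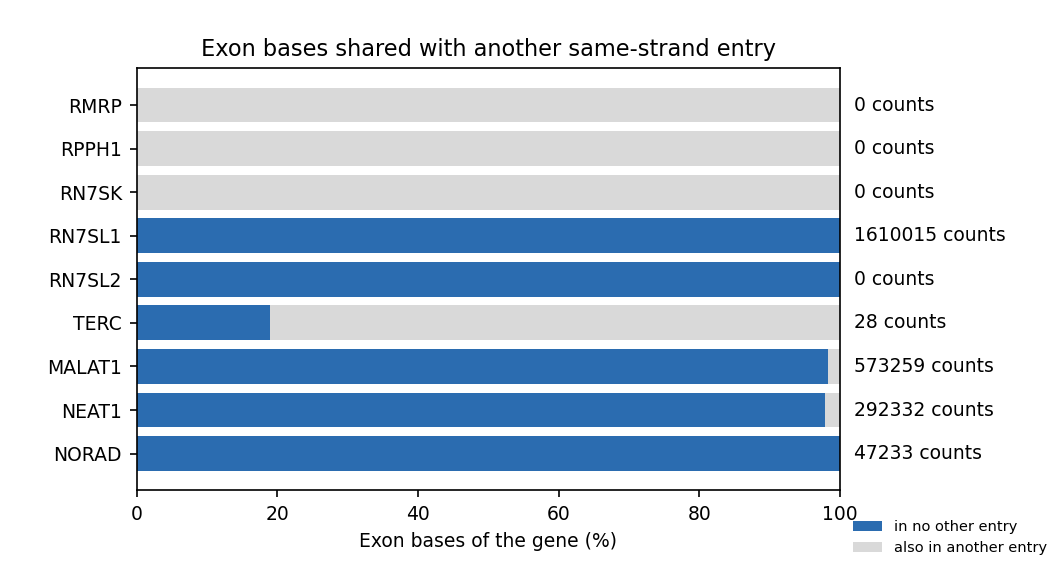
Share of each gene's exon bases that no other same-strand gene entry of the count files covers (blue) and that another entry covers (grey), in percent, with the counts summed over the 9 libraries at the right. RMRP, RPPH1 and RN7SK have 0% of their bases free and 0 counts, TERC has 19.0% free and 28 counts, and RN7SL2 has all bases free in this annotation and 0 counts.

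The paired entries of RMRP and RN7SK are the same RNA drawn with slightly different ends, as their sequences show. The transcripts of the longer entries are printed 5′ to 3′ from the GENCODE 29 transcripts, with the only bases that the shorter entry lacks in capitals: 4 bases in RMRP (ENSG00000269900, chr9:35657751-35658018, minus strand) and 3 bases in RN7SK (ENSG00000202198, chr6:52995620-52995950, plus strand), of which the first and the last 60 bases are shown.
RMRP: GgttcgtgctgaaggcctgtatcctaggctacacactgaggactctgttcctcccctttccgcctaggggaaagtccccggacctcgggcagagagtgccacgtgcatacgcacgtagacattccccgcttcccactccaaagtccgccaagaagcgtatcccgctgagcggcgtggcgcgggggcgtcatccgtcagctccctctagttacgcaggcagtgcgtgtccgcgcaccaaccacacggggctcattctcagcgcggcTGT
RN7SK 5′ end: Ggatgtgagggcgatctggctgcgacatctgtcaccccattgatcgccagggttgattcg
RN7SK 3′ end: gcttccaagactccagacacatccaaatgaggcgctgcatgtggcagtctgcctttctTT
No stretch of 75 bases of RMRP occurs in another gene's transcript apart from such partner entries. Only GENCODE 29 transcripts were searched, so copies elsewhere in the genome are not counted and unique mapping was not tested. Of RN7SK's 75-base stretches, 63.8% occur in other transcripts. The 293 annotated 7SK pseudogenes of the files, a group looked up after the 0 was seen, summed to 17 to 22.8 CPM in 8 libraries and to 8.34 CPM in parental replicate 2.

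The genes of the RNase P and RNase MRP proteins were counted, although the RNAs of these enzymes gave no level. Here and below, a rise or fall of a protein means that of its gene's RNA, and no protein was measured. Of 11 listed proteins, all tested, 9 were higher and 1 lower in clone 37 than in parental cells, while in clone 15 there were 8 higher and 3 that did not pass. Over all genes tested, 26.7% were called higher in clone 37 and 25.1% in clone 15. The share called lower was 27.3% for clone 37 and 26.2% for clone 15. Clone 37 had a list median of 0.42 in log2 and clone 15 one of 0.30, where the medians of all tested genes were 0.024 and 0.015. POP1, the largest shared protein of both enzymes, rose from 29.5 ± 1.95 CPM in parental to 70.8 ± 2.82 in clone 37 (SD, n = 3 each), which is 1.24 ± 0.07 in log2 (SE; edgeR's quasi-likelihood test, adjusted p = 2.63e-10). RPP40, another subunit, rose by 0.89 ± 0.11 in log2 in clone 37 (adjusted p = 1.99e-06). In clone 15 the most changed members were others: RPP25, an RNA-binding subunit, which rose from 19.0 ± 2.55 to 62.6 ± 4.0 CPM (log2 fold change 1.68 ± 0.11, adjusted p = 1.98e-12), and POP5, a core subunit (0.85 ± 0.10, adjusted p = 7.47e-08). Both counts were the same without parental replicate 2, and over the alternatives tried the number higher ranged from 6 to 9 in clone 37 and from 5 to 8 in clone 15. Both clones are compared with the same 3 parental libraries here and below, so the 2 comparisons are not independent.

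The transcription machinery of these genes was counted next. RNA polymerase III reads RMRP, RPPH1 and RN7SK from promoters that lie ahead of the gene, with the help of the SNAPc complex and the initiation factor BRF2. Of 19 listed subunits and factors, all tested, 14 rose and 3 fell in clone 37, whereas in clone 15 there were 8 that rose and 5 that fell. Of all genes tested, 26.7% were called higher and 27.3% lower for clone 37, against 25.1% and 26.2% for clone 15. The list medians were 0.29 and 0.19 in log2, beside 0.024 and 0.015 for all tested genes. POLR3K, a small subunit of the polymerase, rose from 28.1 ± 2.13 to 65.0 ± 0.380 CPM in clone 37 (log2 fold change 1.18 ± 0.07, adjusted p = 6.71e-10). SNAPC4, the largest SNAPc subunit, rose in both clones, by 0.83 ± 0.13 in clone 37 (adjusted p = 0.000490) and 0.87 ± 0.11 in clone 15 (adjusted p = 5.15e-06). SNAPC1, another SNAPc subunit, fell by 0.62 ± 0.14 in clone 15 (adjusted p = 0.000504). Leaving out parental replicate 2 gave the same 4 counts. Over the alternatives, the number higher ranged from 9 to 14 in clone 37 and from 3 to 9 in clone 15.

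Transcripts of the proteins around 7SK RNA moved in both directions. Of 8 listed, all tested, 5 rose and 1 fell in clone 37, whereas clone 15 had 2 in each direction. The shares of all tested genes called higher were 26.7% and 25.1%, and those called lower 27.3% and 26.2%, so the clone 15 counts are near the background. MEPCE, the enzyme that caps 7SK RNA, rose from 68.3 ± 3.70 CPM in parental to 110.2 ± 4.15 in clone 37 (log2 fold change 0.66 ± 0.06, adjusted p = 8.20e-08). HEXIM1, the inhibitor through which 7SK holds P-TEFb, rose from 35.7 ± 1.23 to 74.3 ± 2.63 CPM in clone 15 (1.02 ± 0.09, adjusted p = 3.54e-10). CCNT2, which encodes the cyclin T2 partner of the P-TEFb kinase, fell in both clones, by 0.55 ± 0.07 in clone 37 (adjusted p = 2.61e-06) and 0.74 ± 0.08 in clone 15 (adjusted p = 4.07e-08). Clone 15 had 3 genes higher and 1 lower when parental replicate 2 was left out.

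7SL RNA was the most heavily counted of the set, and nearly all of its counts went to 1 of 3 near-identical genes on chromosome 14. RN7SL1 (ENSG00000276168, chr14:49586580-49586878, plus strand, 299 bases) had 1610015 counts over the 9 libraries. RN7SL3 (ENSG00000278771, chr14:49853616-49853914, minus strand), which is not in the set and was added after its values were seen, had 84360. RN7SL2 (ENSG00000274012, chr14:49862550-49862849, minus strand, 300 bases) was listed at 0 in every library. No other exon covers RN7SL2 in GENCODE 29, although it lies in an intron of the same-strand gene ENSG00000282885; what set its count to 0 was not tested. In the GENCODE 29 transcripts RN7SL2 differed from RN7SL1 at 4 of 299 aligned bases (98.7% identity) and RN7SL3 at 7 (97.7% identity). Of the 75-base stretches, 77.3% in RN7SL1, 84.1% in RN7SL2 and 21.8% in RN7SL3 occur in another gene's transcript. At 100 bases the shares were 74.5%, 82.1% and 12%. Pairs that fit several copies equally are left out of the counts, so the values below cover uniquely placed pairs and understate 7SL RNA by an amount the files do not show.

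RN7SL1 was lower in clone 37 than in the other groups. It had 10642, 10726 and 9508 CPM in parental replicates 1, 2 and 3, 7227, 6467 and 6695 CPM in clone 37, and 12770, 11720 and 11680 CPM in clone 15. All 3 clone 37 libraries lay below all 6 others, and all 3 clone 15 libraries lay above all parental ones. The drop in clone 37 against parental was 1.54-fold, a log2 fold change of -0.62 ± 0.11 (SE, with 3 libraries in each group; edgeR adjusted p = 7.88e-05). It was called in each of 19 alternatives, with log2 fold changes from -0.93 to -0.58 (-0.60 without parental replicate 2). In bulk RNA, fewer cells with an RNA and less of it per cell cannot be told apart. Against clone 15 the drop was 1.77-fold (-0.82 ± 0.06, adjusted p = 8.21e-13).

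For clone 15 against parental, RN7SL1's log2 fold change was 0.20 ± 0.13 (edgeR adjusted p = 0.217), which did not pass although the groups did not overlap. It passed without parental replicate 2 (0.25, adjusted p = 0.00381), with the DESeq2 Wald test (0.20, adjusted p = 0.0391) and with scaling factors from protein-coding genes (0.24, adjusted p = 0.0381). With per-library trends in GC content and length removed its sign was negative (-0.10, adjusted p = 0.645). Read length and the share of multimapping pairs move with this comparison, and their part in the result was not tested.

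RN7SL3 moved the same way, and further. It was at 552.96, 553.91 and 496.8 CPM in parental, 298.9, 285.0 and 275.8 CPM in clone 37, and 708.5, 570.5 and 725.2 CPM in clone 15. The groups did not overlap in any of the 3 comparisons. Its log2 fold change was -0.93 ± 0.07 in clone 37 (edgeR adjusted p = 3.53e-09) and 0.29 ± 0.10 in clone 15 (adjusted p = 0.0190), both against parental. Without parental replicate 2 these were -0.90 and 0.34, both called. The clone 15 call was lost in 5 of 18 alternatives, including without parental replicate 3 (adjusted p = 0.137), clone 15 replicate 1 (0.0647) or clone 15 replicate 3 (0.0670). RN7SL1 exceeded RN7SL3 by 19.1 to 19.4 times in parental, 22.7 to 24.3 times in clone 37 and 16.1 to 20.5 times in clone 15, a ratio of counts within each library that depth does not change. The 677 annotated 7SL pseudogenes together held 0.391% to 1.09% of the counts of the whole 7SL family.

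The drop of RN7SL1 in clone 37 against parental was opposite in sign to the median of short genes. Among 278 other tested genes whose longest transcript is under 400 bases, the median log2 fold change in clone 37 was 0.41, and 61 were called higher and 21 lower, which is 29.5% called beside 54% of all tested genes. In clone 15 the median of 423 such genes was 0.37, with 93 higher and 31 lower. Between the clones the median of 464 such genes was 0.079, with 73 higher and 70 lower in clone 37. For genes of at least 3000 bases the medians against parental were -0.02 and -0.07. Parental and clone 37 libraries had the same read length. Insert sizes of the libraries were not analysed here.

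Transcripts of the signal recognition particle proteins moved in both directions. Of 8 listed, all tested, 1 rose and 1 fell in clone 37, whereas 3 rose and 2 fell in clone 15, beside 54% and 51.4% of all tested genes called in either direction. SRP54, which binds the signal sequence, fell from 78.9 ± 4.15 CPM in parental to 56.5 ± 0.980 in clone 37 (log2 fold change -0.51 ± 0.06, adjusted p = 3.86e-06). SRPRA, the receptor subunit on the endoplasmic reticulum, rose by 0.24 ± 0.06 in clone 37 (adjusted p = 0.00236) and by 0.38 ± 0.08 in clone 15 (adjusted p = 0.000354). SRP9, which binds the end of 7SL that resembles Alu elements, fell by 0.41 ± 0.09 in clone 15 (adjusted p = 0.000690). With parental replicate 2 left out, 4 rose and 1 fell in clone 37, and clone 15 had 3 and 1, where 59.4% and 48% of all tested genes were called. The SRPRA call in clone 37 was lost without parental replicate 3 (adjusted p = 0.0533) and with all read pairs as library size (0.0727).

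TERC (ENSG00000270141, chr3:169764520-169765060, minus strand, 541 bases) was counted at the edge of detection. It had 3, 1 and 1 counts in parental replicates 1, 2 and 3, 1, 1 and 0 in clone 37, and 9, 10 and 2 in clone 15. Only clone 15 replicates 1 and 2, which are also the 2 deepest libraries, had more than 3. Relative to gene counts, clone 15 was at 1.95 times parental (95% exact interval 0.716 to 6.62, from 21 against 5 pooled counts) and clone 37 at 0.449 times parental (0.0428 to 2.74, from 2 against 5). The ratio of clone 15 to clone 37 was 4.34 (1.06 to 38.2). These intervals cover counting error only, TERC did not pass the filter in any comparison, and no difference from parental was detectable at this depth.

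Most of the bases over which TERC could be counted lie beyond the end that RefSeq gives it. Of its 541 bases, 438 also lie in a second same-strand entry (ENSG00000277925), which leaves 103 free (19.0%), 13 at the 5′ end and 90 at the 3′ end. RefSeq on GRCh38.p14 ends TERC after 451 bases (chr3:169764610-169765060), so the 90 bases at the 3′ end lie beyond it. Both ends are printed 5′ to 3′ from GENCODE 29 with the free bases in capitals, the 5′ end at chr3:169765018-169765060 and the 3′ end at chr3:169764520-169764639, because a counted pair had to lie over these bases.
TERC 5′ end: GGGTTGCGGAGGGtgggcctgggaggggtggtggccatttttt
TERC 3′ end: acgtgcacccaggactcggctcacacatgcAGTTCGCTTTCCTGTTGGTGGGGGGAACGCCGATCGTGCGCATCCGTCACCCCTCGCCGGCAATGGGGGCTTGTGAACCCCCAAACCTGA

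Of 8 genes of telomerase proteins, all tested, 5 rose in clone 37 and 5 in clone 15, which are not all the same genes. The other 3 did not pass in clone 37, and 2 fell in clone 15. Over all genes 26.7% were called higher in clone 37 and 25.1% in clone 15. The shares called lower were 27.3% and 26.2%, so the 2 that fell in clone 15 are near the background. GAR1 and NAF1 belong to the box H/ACA machinery that also serves many other RNAs: GAR1 rose by 0.75 ± 0.08 in log2 (adjusted p = 7.15e-07) and NAF1 by 0.89 ± 0.06 (adjusted p = 4.27e-09) in clone 37, whereas NAF1 did not pass in clone 15 (0.017, adjusted p = 0.885). WRAP53, which carries telomerase to Cajal bodies, rose from 25.9 ± 0.664 to 49.7 ± 1.91 CPM in clone 15 (0.91 ± 0.09, adjusted p = 7.20e-09). TERT, the reverse transcriptase itself, fell from 6.06 ± 1.16 CPM in parental to 1.88 ± 0.522 in clone 15 (-1.68 ± 0.23, adjusted p = 1.03e-06). In clone 37 TERT was at 4.62 ± 0.470 CPM and did not pass with all libraries (-0.41 ± 0.18, adjusted p = 0.0712). It was the only gene of the list with a negative log2 fold change there. The clone 37 counts were 6 higher and 1 lower when parental replicate 2 was left out, where 59.4% of all tested genes were called. By sign the 1 lower would be TERT, whose own value in that fit is not given. Over the alternatives the number higher in clone 37 ranged from 3 to 6.

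**Figure D2:**
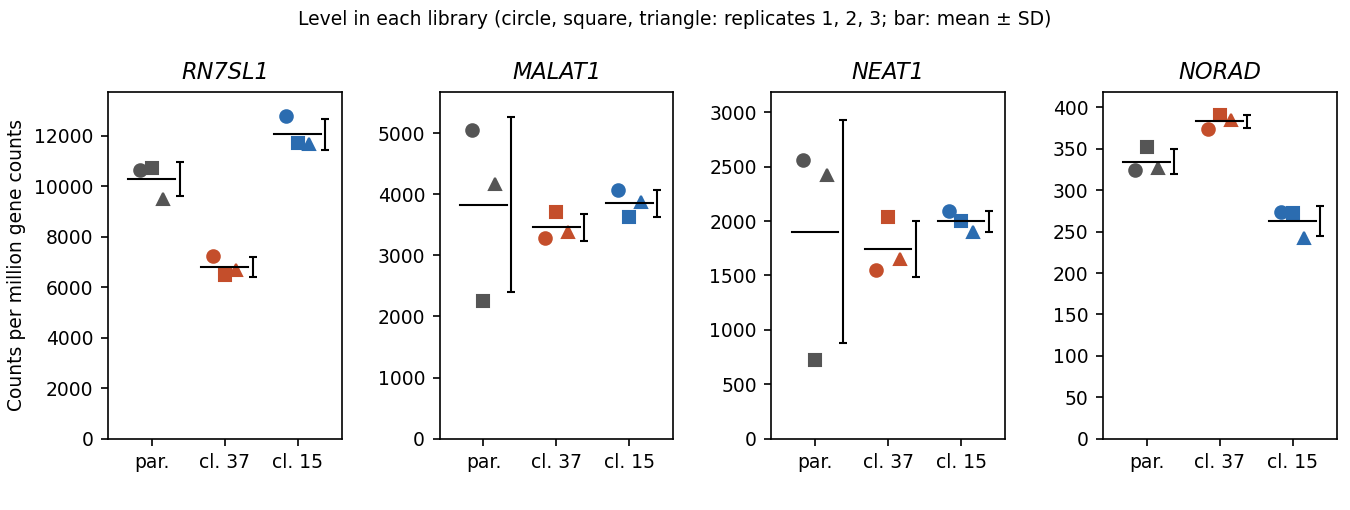
Level of the 4 tested RNAs in each library, in CPM on linear axes that start at 0, with the replicate number as the symbol and the mean ± SD of 3 libraries in black. RN7SL1 is lowest and NORAD highest in all 3 clone 37 libraries, while for MALAT1 and NEAT1 the lowest point is parental replicate 2, at 2260 and 724 CPM.

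MALAT1 (ENSG00000251562, chr11:65497688-65506516, plus strand) and NEAT1 (ENSG00000245532, chr11:65422774-65445540, plus strand) are neighbours on chromosome 11, and 98.3% and 97.9% of their exon bases are in no other same-strand entry. MALAT1 had 5054, 2260 and 4174 CPM in parental replicates 1, 2 and 3, 3285, 3703 and 3382 CPM in clone 37, and 4073, 3630 and 3866 CPM in clone 15. The parental group spanned the values of both clones, from above all of them in replicates 1 and 3 to below all of them in replicate 2. NEAT1 had 2562, 724 and 2422 CPM in parental, 1549, 2034 and 1653 CPM in clone 37, and 2096, 2000 and 1899 CPM in clone 15. Its pattern was the same as that of MALAT1: parental replicates 1 and 3 were the highest libraries and replicate 2 the lowest.

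With all libraries, neither RNA differed from parental beyond the spread between replicates. For MALAT1 the log2 fold change was -0.17 ± 0.29 in clone 37 (SE, edgeR adjusted p = 0.664) and -0.01 ± 0.24 in clone 15 (adjusted p = 0.982). For NEAT1 it was -0.14 ± 0.52 in clone 37 (adjusted p = 0.844) and 0.06 ± 0.51 in clone 15 (adjusted p = 0.937). Without parental replicate 2 both RNAs were called lower in both clones. MALAT1 then was at -0.44 in clone 37 (adjusted p = 8.33e-05) and -0.27 in clone 15 (adjusted p = 0.00867), and NEAT1 at -0.54 (adjusted p = 0.0387) and -0.33 (adjusted p = 0.000146). That one library thus decides whether these differences are called, and for NEAT1 in clone 15 also the sign.

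Between the clones the spread was smaller. MALAT1 was lower in clone 37 than in clone 15 by a log2 fold change of -0.15 ± 0.06 (edgeR adjusted p = 0.0213), although the groups overlapped. This call was lost in 5 of 19 alternatives, including without clone 37 replicate 1 (adjusted p = 0.189), clone 37 replicate 3 (0.0620) or clone 15 replicate 1 (0.117). NEAT1 was at -0.19 ± 0.09 (adjusted p = 0.0754) and was called in 9 of 19 alternatives, including without clone 37 replicate 2 (-0.30, adjusted p = 0.000370) and without clone 15 replicate 3 (-0.24, adjusted p = 0.0372). It was nearer to 0 without clone 37 replicate 1 (-0.11, adjusted p = 0.253) and with GC and length trends removed (-0.036, adjusted p = 0.703).

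**Figure D3:**
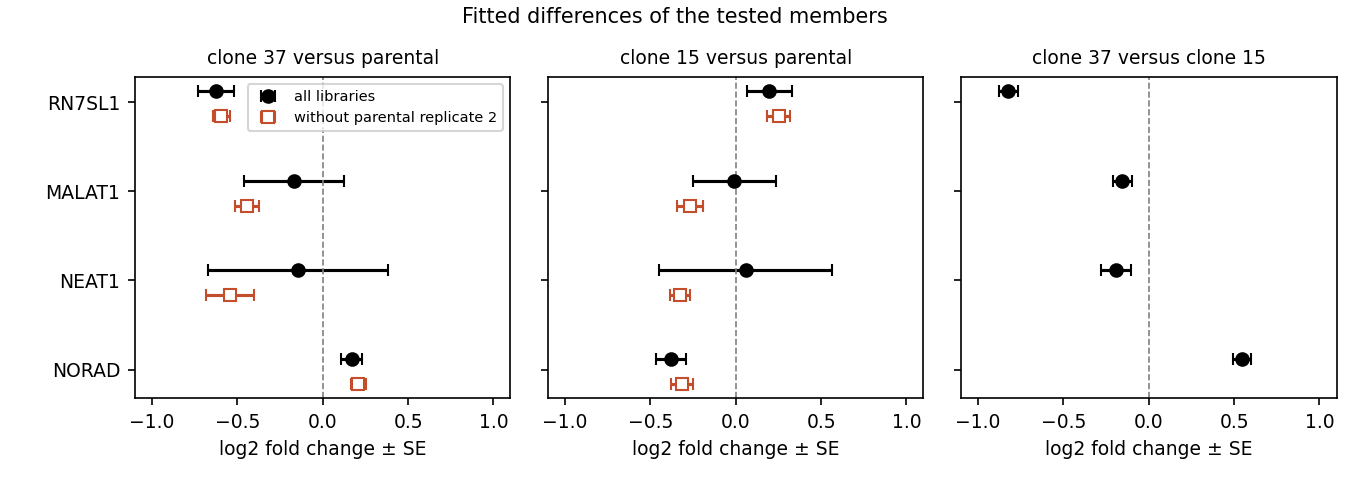
Fitted log2 fold change ± SE of the 4 tested RNAs in the 3 comparisons, with all libraries (black circles) and without parental replicate 2 (open squares). Leaving out that library moves MALAT1 and NEAT1 down in both comparisons with parental, NEAT1 in clone 15 from above 0 to below it, with shorter error bars, and leaves RN7SL1 and NORAD on the same side of 0.

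In parental replicate 2, MALAT1 was 2.04 times and NEAT1 3.44 times below the mean of the other parental libraries, whereas RN7SL1 and NORAD there stood at 10726 and 352 CPM, slightly above the other parental libraries. The ratio of MALAT1 to NEAT1 counts, which depends on neither depth nor scaling, was 3.12 in that library and 1.72 to 2.12 in the other 8. The same library had the smallest share of pairs outside annotated exons of their own strand. Of 9 other listed long noncoding RNAs with a mean of at least 5 CPM, 4 (44.4%) had their lowest level of all libraries there, beside 18.1% of all genes of that level, and their median log2 ratio to the other parental libraries was -0.24 against 0.00 for all genes. For 8 genes of speckle proteins 3 (37.5%) were lowest there, with a median of -0.18. For 10 genes of paraspeckle proteins 4 (40%) were lowest and 2 (20%) highest, with a median of -0.03. These lists had the largest shares at their lowest. The share was 0% for the RNase P and MRP, 7SK and other short RNA lists. It was 12.5% for the signal recognition particle, 14.3% for telomerase and 15.8% for the RNA polymerase III list. Whether nuclear RNA was recovered less well in this library was not tested.

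**Figure D4:**
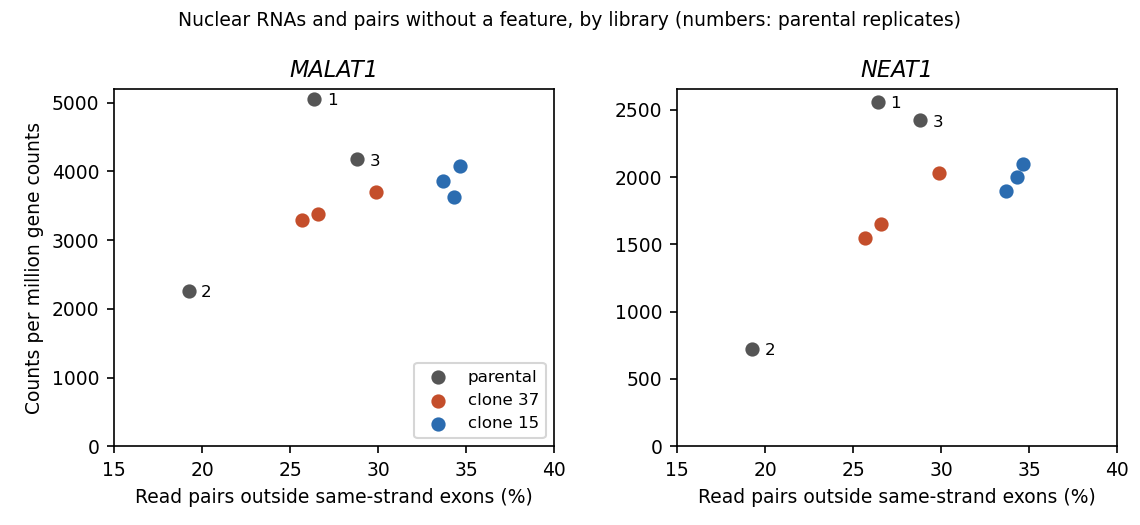
MALAT1 and NEAT1 in CPM against the share of read pairs outside annotated exons of their own strand (percent), 1 point per library, with parental replicate numbers written beside their points. Parental replicate 2 lies apart at 19.2%, with 2260 CPM of MALAT1 and 724 CPM of NEAT1, and the other 8 libraries lie between 25.7% and 34.6%.

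How many genes of paraspeckle and speckle proteins were called in clone 37 depended on parental replicate 2. Of 10 paraspeckle proteins, all tested, 2 rose and 1 fell in clone 37, whereas clone 15 had 2 in each direction. RBM14, which paraspeckles need to form, rose in both clones, by 0.45 ± 0.07 in clone 37 (adjusted p = 3.43e-05) and 0.71 ± 0.09 in clone 15 (adjusted p = 1.96e-07). SFPQ, a core protein bound to NEAT1, rose by 0.22 ± 0.07 in clone 37 (adjusted p = 0.0113), a call lost without clone 37 replicate 1 (adjusted p = 0.0584) or replicate 3 (0.0869), with unstranded counts (0.0912) and with all read pairs as library size (0.155). NUDT21, a cleavage factor known to act on the choice between the short and the long form of NEAT1, fell from 228.8 ± 16 CPM in parental to 133.0 ± 5.94 in clone 15 (-0.81 ± 0.08, adjusted p = 1.69e-08). The counts do not separate these forms.

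Of 8 genes of speckle proteins, all tested, 2 rose in clone 37 and the other 6 did not pass, whereas clone 15 had 1 in each direction. SRRM2, a scaffold of speckles, rose by 0.38 ± 0.09 in clone 37 (adjusted p = 0.00177), and SRRM1, a splicing coactivator, by 0.24 ± 0.06 (adjusted p = 0.00193). In clone 15 ACIN1, a splicing-associated protein, rose by 0.34 ± 0.09 (adjusted p = 0.00225) and SRSF1, a splicing factor known to be found with MALAT1, fell by 0.30 ± 0.08 (adjusted p = 0.00320), a call lost with GC and length trends removed (-0.16, adjusted p = 0.0874). The SRRM1 call was lost with all read pairs as library size (adjusted p = 0.0874). When parental replicate 2 was left out, the clone 37 counts were 3 higher and 3 lower for paraspeckle proteins and 2 higher and 3 lower for speckle proteins. Clone 15 then had 2 lower speckle proteins. Over all genes tested, 54% were called in clone 37 and 51.4% in clone 15 with all libraries, and 59.4% and 48% without that one, so the clone 37 counts without it are near the background.

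Other long noncoding RNAs did not move as one group. Of 12 listed, 11 were in the files and 10 were tested, of which 3 fell in clone 37 and the other 7 did not pass, whereas in clone 15 there were 4 that rose and 3 that fell. Beside these counts, 27.3% of all tested genes were called lower in clone 37, which is near the share of this list, and 51.4% were called in either direction in clone 15. TUG1 fell from 288.7 ± 25.3 CPM in parental to 200.5 ± 4.45 in clone 37 (log2 fold change -0.55 ± 0.06, adjusted p = 9.68e-07). LINC-PINT fell by 0.77 ± 0.24 in clone 37 (adjusted p = 0.0142) with overlapping groups, and was lost without parental replicate 3 (adjusted p = 0.0559) or clone 37 replicate 1 (0.0535). In clone 15 FTX, made beside the XIST locus, rose by 0.97 ± 0.14 (adjusted p = 0.000131), and KCNQ1OT1, an imprinted antisense RNA, rose by 0.81 ± 0.13 (adjusted p = 0.000330). Up to 3 rose in clone 37 in the alternatives tried, and when parental replicate 2 was left out 4 fell there and clone 15 had 3 higher and 4 lower.

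NORAD (ENSG00000260032, chr20:36045622-36050960, minus strand, 5339 bases in 1 exon) is known to bind PUM2 through repeated copies of a short motif. The motif TGTANATA, in which N is any base, was searched on the RNA's own strand after the gene's values were seen. It matched 15 times in NORAD (2.81 per kb), 6 times in NEAT1 (0.264 per kb) and 0 times in MALAT1. Of 1405 genes whose longest transcript is 5000 to 5700 bases, 609 (43.3%) held a match, the median was 0, and 3 genes, NORAD included, had 15 or more. A stretch of 129 bases (chr20:36049703-36049831, minus strand, from GENCODE 29) with 2 of the matches in capitals is printed to show the spacing. A match is a description of the letters and not of binding in these cells.
NORAD 1130 to 1258: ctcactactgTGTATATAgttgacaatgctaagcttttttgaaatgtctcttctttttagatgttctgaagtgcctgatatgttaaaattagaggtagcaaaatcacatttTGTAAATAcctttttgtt

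NORAD was higher in clone 37 and lower in clone 15. It had 324.5, 352.1 and 326.8 CPM in parental replicates 1, 2 and 3, 374.2, 390.4 and 385.0 CPM in clone 37, and 274.3, 272.7 and 241.7 CPM in clone 15. The 3 groups did not overlap: each clone 37 library was above, and each clone 15 library below, every parental library. In clone 15 it fell 1.30-fold against parental, a log2 fold change of -0.38 ± 0.09 (SE, n = 3 each; edgeR adjusted p = 0.000656). That call was kept in 18 of 19 alternatives, among them without parental replicate 2 (-0.32, adjusted p = 0.000360), and was lost with GC and length trends removed (-0.18, adjusted p = 0.0586). Between the clones the difference was 1.46-fold (0.55 ± 0.05, adjusted p = 1.48e-09), called in all 19.

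The increase of NORAD in clone 37 against parental was small and not stable. Its log2 fold change was 0.17 ± 0.06 (edgeR adjusted p = 0.0261), and it was positive in all 19 alternatives but called in 7. Without single libraries the adjusted p was 0.120 (parental replicate 1), 0.282 (parental replicate 3), 0.0684, 0.0899 and 0.226 (clone 37 replicates 1, 2 and 3). Without parental replicate 2 it was called at 0.21 (adjusted p = 1.43e-05). Of NORAD's 75-base stretches 20.6% occur in other transcripts, and of its 100-base stretches 12.2%, so read length moves with the comparisons that include clone 15, and its part in them was not tested.

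Of the genes whose proteins are known to bind NORAD or to depend on it, 3 are given by the rule for named genes. PUM2, an RNA-binding protein that NORAD binds, fell from 218.4 ± 6.49 CPM in parental to 150.9 ± 0.737 in clone 37 and 149.5 ± 4.08 in clone 15, which is -0.56 ± 0.06 in log2 (adjusted p = 2.25e-07) and then -0.58 ± 0.08 (adjusted p = 1.19e-06). KHDRBS1, which encodes SAM68, fell by 0.25 ± 0.07 in clone 37 (adjusted p = 0.00396) and by 0.39 ± 0.09 in clone 15 (adjusted p = 0.000544). SMC3, a cohesin subunit, fell by 0.44 ± 0.09 in clone 15 (adjusted p = 0.000220) and was at 0.016 ± 0.060 in clone 37 (adjusted p = 0.841). PUM2 was thus lower in the clone with more NORAD and in the clone with less.

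The remaining short structural RNAs, among them spliceosomal, Y and vault RNAs, often had too few counts to test. RNU2-1, RNU7-1, RNU12, SCARNA2, SNORD118 and VTRNA2-1 were listed at 0 in every library. What set these counts to 0 was not tested, and they are not read as levels. Of 25 listed, 24 were in the files and 11 were tested in clone 37 and 12 in clone 15, of which 3 rose and 2 fell in clone 37 whereas 2 rose and 4 fell in clone 15, RN7SL3 included. Both clone 37 counts are near the shares of all tested genes, 26.7% higher and 27.3% lower, and in clone 15 those shares were 25.1% and 26.2%. RNU5B-1, a U5 spliceosomal RNA, was at 1.14 ± 0.489 CPM in parental and 2.83 ± 0.645 in clone 37 (log2 fold change 1.31 ± 0.33, adjusted p = 0.00243). RNU5A-1 rose by 0.99 ± 0.26 (adjusted p = 0.00360) in clone 37, a call lost without clone 37 replicate 3 (0.69, adjusted p = 0.0539) and with GC and length trends removed (0.56, adjusted p = 0.0557). BCYRN1, which shares sequence with Alu elements, fell from 6.03 ± 1.31 CPM in parental to 0.628 ± 0.0707 in clone 15 (-3.31 ± 0.27, adjusted p = 2.86e-10). RNU1-1, a U1 gene with near-identical copies, was at 0.123 ± 0.214 CPM in parental and 0.957 ± 0.0530 in clone 15. It passed the filter in that comparison only through clone 15, where it is high, so its place among the 2 that rose there is no usable test. BCYRN1 and RNU1-1 share sequence with other loci, so their counts are uncertain, and a dependence on read length was not tested. RNU6ATAC, another of the 4 that fell in clone 15, was at 0.988 ± 0.106 CPM in parental and 0.338 ± 0.0256 in clone 15. It passed the filter in that comparison only through parental, where it is high, so its fall is no usable test. In clone 37, 2 genes rose when parental replicate 2 was left out.

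**Figure D5:**
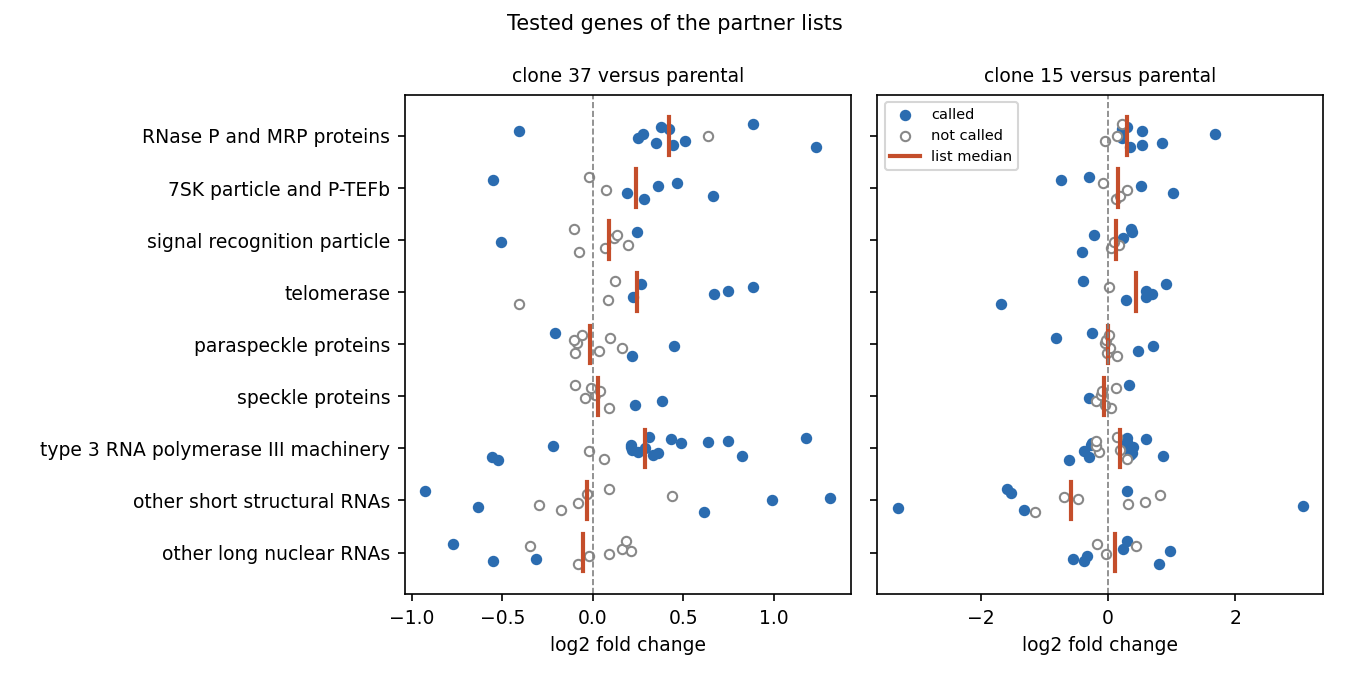
Log2 fold change of every tested gene of 9 partner lists in clone 37 and clone 15 against the same parental libraries, filled where called at an adjusted p under 0.05, with the list median as a red bar; the panels have different horizontal scales. The medians of the RNase P and MRP proteins (0.42 and 0.30) and of the type 3 RNA polymerase III machinery (0.29 and 0.19) lie to the right of 0 in both panels. So do those of the telomerase (0.24 and 0.44), 7SK (0.24 and 0.15) and signal recognition particle (0.093 and 0.13) lists.

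Taking the tested RNAs as a set, clone 37 against parental had 1 of 4 higher and 1 lower, where 54% of all tested genes were called in one direction or the other. Clone 15 against parental had 1 lower and 3 that did not pass, beside 51.4% of all tested genes. Clone 37 against clone 15 had 1 higher and 2 lower, beside 57.7%. In each comparison 2 of the 4 had groups that did not overlap, where 61.7%, 59.5% and 63.5% of all tested genes did not. With 4 tested genes, these shares give no result about the set.

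Levels can be compared between genes once divided by exon length. Per kilobase of exon, RN7SL1 was at 34421 ± 2275 CPM in parental (SD, n = 3), MALAT1 at 433.7 ± 161.8, NEAT1 at 83.6 ± 44.9 and NORAD at 62.6 ± 2.86. In clone 37 the same order held, with 22730 ± 1304 for RN7SL1, 391.6 ± 24.8 for MALAT1, 76.7 ± 11.2 for NEAT1 and 71.8 ± 1.54 for NORAD. In clone 15 these levels were 40324 ± 2068, 436.8 ± 25.1, 87.8 ± 4.32 and 49.2 ± 3.44. NEAT1 and NORAD overlapped in parental (31.8 to 112.5 against 60.8 to 65.9) and in clone 37 (68.0 to 89.3 against 70.1 to 73.1), so their order is clear of the spread only in clone 15. TERC is left out because most of its bases cannot be counted where the entries overlap. For a 299-base RNA the value per kilobase depends on fragment length and leaves out pairs shared between copies. The 9 genes together held 1.21% to 1.92% of gene counts per library.

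Across the 9 libraries, MALAT1 and NEAT1 had the most similar profiles within the set (Pearson r = 0.963 of log2 CPM), and NORAD and RN7SL1 opposite ones (r = -0.857). These values describe 3 groups and 1 outlying library, and have no test. Among 12148 other genes, GLIS3 (r = 0.991) and RRAGA (0.990) were most like RN7SL1, and LACTB2 (0.996) and RRN3 (0.993) most like NORAD. RRN3, an initiation factor of RNA polymerase I, was at 58.5 to 66.2 CPM in parental, 72.6 to 74.5 in clone 37 and 37.8 to 48.4 in clone 15. PPP4R1L, a transcribed pseudogene (r = 0.987), and the antisense gene PCGF3-AS1 (0.95) were most like MALAT1, and TMEM63A (0.981) and the noncoding gene ENSG00000230551 (0.971) most like NEAT1. These 4 genes had their lowest parental value in replicate 2, at 10.8, 9.85, 46.8 and 19.9 CPM.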

How the data were processed

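Total RNA of 9 HEK293T libraries was sequenced as paired ends after depletion of ribosomal RNA with a directional kit (500 ng of RNA, 13 cycles), per the labels' protocols. The authors deposited raw counts per gene, 1 file per library. STAR 2.7.10a, FastQC 0.11.9 and hg38 are named in the submitters' processing notes; the annotation release is not given in the sources used here. Column 4 of the files, the transcript strand, held 92.6% to 94.0% of stranded gene counts and was used. The 4 summary entries, which are not genes, were kept apart from library sizes and tests: pairs without a feature were 19.2% to 34.6% of all pairs, multimapping pairs 4.59% to 14% and ambiguous pairs 3.76% to 4.4%.

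Of 60683 gene IDs, 60370 had a symbol and 58496 were in GENCODE 29 on GRCh38, from which positions, overlaps, sequences and shared 75-base and 100-base stretches were taken. The files were made with another release, since some of their IDs are not in this one. Each pair of groups was fitted on its 6 libraries with edgeR 4.0.16 in R 4.3.3 (filterByExpr, TMM, robust glmQLFit, glmQLFTest), with Benjamini-Hochberg adjustment over all genes tested and a call where it was under 0.05. Standard errors are the log2 fold change over the square root of F. The fit was tested on simulated counts. CPM scales each library's gene counts to a total of 1000000, with no further factor. TERC ratios have 95% exact binomial intervals.

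The members, the gene lists and the alternatives were chosen with earlier results of these data known. All members were named, together with the 2 called genes of each list with the largest change in each comparison with parental, and the 2 genes most like each tested member (Pearson r of log2 CPM, prior count 2, mean of at least 5 CPM). RN7SL3, the pseudogene sums, the PUM2 motif, TERT in clone 37 and parental replicate 2's ranks were added after values were seen. The alternatives comprised leaving out each library, DESeq2 1.42.0 (Wald test), RLE size factors, other filters, the unstranded column, one fit for all 9 libraries, the replicate number as a block, thinned counts, other library sizes and scaling genes, removal of GC and length trends, and summed 7SL genes. Replicate pairs all differed beyond sampling noise, so no library was counted as a copy of another. The reporters were not analysed here. Counts over the NORAD partner list and the 7SL sequences are not reported here.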

Additional observations from a re-analysis of the deposited data

Results flagged for a closer look

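RN7SL1 and NORAD differed between the 2 clones in opposite directions. Every clone 37 library had less RN7SL1 than the parental mean and every clone 15 library more, and the difference between the clones passed the test (log2 fold change of clone 37 against clone 15 -0.82, edgeR adjusted p = 8.21e-13). For NORAD the order was turned: every clone 37 library was above and every clone 15 library below the parental mean (0.55 between the clones, adjusted p = 1.48e-09). Against parental, RN7SL1 in clone 15 was not called (0.20, adjusted p = 0.217) and was -0.10 with GC and length trends removed, and NORAD in clone 37 (0.17, adjusted p = 0.0261) was called in 7 of 19 alternatives. Between the clones these directions held in all 19 alternatives for both genes. Clone 15 also differs from clone 37 in read length, and the part of read length in either difference was not tested.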

How the results depend on the processing

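The direction and call of RN7SL1 in clone 37 against parental, and of RN7SL1 and NORAD between the clones, were kept in all 19 alternatives. The number of members called in clone 37 against parental, 2, fell to 1 with RLE size factors, with no filter on low counts, with 1 CPM in 3 libraries, with unstranded counts, with all 9 libraries in one fit, with the replicate block and with all read pairs as library size; when single replicates were left out it ranged from 1 to 4, with 4 only without parental replicate 2. In clone 15 against parental the number was 1; it was 2 with DESeq2 and with TMM from protein-coding genes and 0 with GC and length trends removed, and when single replicates were left out it ranged from 1 to 4, again with 4 only without parental replicate 2. The cause was not tested.

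The sign turned in these cases, of which RN7SL3 in clone 15 had been called (0.29, adjusted p = 0.0190) and the others had not. In clone 37 against parental, MALAT1 ranged from -0.44 to 0.075 and NEAT1 from -0.54 to 0.13 when single replicates were left out, and NEAT1 was 0.018 with the replicate block and 0.071 with GC and length trends removed. In clone 15 against parental MALAT1 was 0.056 with the replicate block, 0.0017 when thinned to the smallest library, 0.0027 with all read pairs as library size, 0.023 with TMM from protein-coding genes and 0.22 with GC and length trends removed. With single replicates left out it ranged from -0.27 to 0.22 and NEAT1 from -0.33 to 0.31. Removing GC and length trends also brought CCNT2, NUDT21, PUM2, SMC3, SNAPC1 and SRP9 in clone 15 nearer to 0 by over 1.5 times, with all 6 still called. With these trends removed RN7SL1 was -0.10 and RN7SL3 -0.0073 in that comparison.

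With all read pairs in place of gene counts scaled to 1000000, RN7SL1 was at 5730, 3624 and 6570 in parental, clone 37 and clone 15, MALAT1 at 2098, 1840 and 2101, NEAT1 at 927.0 in clone 37 and 1089 in clone 15, and NORAD at 186.2, 204.2 and 143.2; this denominator is larger by construction. Unstranded counts put NORAD in clone 37 at 397.6 CPM. With no filter on low counts the median log2 fold change of all genes moved from 0.015 to 0.14 in clone 15 against parental and from -0.0015 to -0.12 between the clones.

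Samples share replicate numbers in the labels. Their deviations from the group means correlated at -0.16 to 0.02 for same-numbered pairs, 0 of 9 above 0.1, so the numbers do not pair the samples. With the replicate block 8375 genes were called in clone 37 against parental (8903 without), 8708 in clone 15 (9092) and 10490 between the clones (10223). TERC had too few counts to be tested, and most of its bases lie under a second entry.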
